A study of Mus musculus with 12 samples.

Results

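The SLAM family receptors and their adaptor SAP were followed through bulk RNA sequencing of TH17 cells sorted from the central nervous system. The members were taken by name: Slamf6, Slamf1, Slamf7, Slamf9, Ly9, Cd84, Cd48 and Sh2d1a, which are 8 of the 47359 genes in the count table. All 8 were tested: 7 passed the filter on low counts on the WT libraries alone, and Slamf9 passed it only through the DKO libraries. Slamf6 encodes one of the markers on which the cells were sorted, so its level between the sorted subsets is a check on the sort and not a result.

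The libraries came from 4 groups of transferred T cells of the TH17 type, all recovered from the central nervous system of RAG2-/- host mice at peak disease. The 2D2-IL-17A/F-DKO groups, whose T cells lack the cytokines IL-17A and IL-17F, held 1 CXCR6+ library and 1 SLAMF6+ library. The 2D2-WT groups held 5 CXCR6+ and 5 SLAMF6+ libraries. 2D2 is a transgenic T cell receptor specific for a myelin protein, and all 4 groups carry it by label. The receptor segment Trbv16 held at least 99.6% of beta variable reads in WT libraries but 9.96% and 6.51% in the DKO libraries. That all groups held T cells of like specificity was therefore not shown. RAG2-/- hosts lack own T and B cells but keep myeloid and NK cells. Each library was made from 1000 living sorted cells with a modified SMART-Seq2 protocol. The labels used here give no age or sex of the animals, and do not say whether the WT replicates came from separate hosts, so p-values measure only the spread between these samples.

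SLAM receptors are cell surface proteins of the immunoglobulin superfamily, and most of them bind the same receptor on a neighbouring cell. Their cytoplasmic switch motifs recruit SAP, the small adaptor encoded by Sh2d1a, which brings in the kinase Fyn. In T cells this system is known for tuning contacts between lymphocytes, follicular help and cytokine production. All SLAM receptor genes among the members lie together on mouse chromosome 1, and Sh2d1a lies on chromosome X.

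The DKO libraries stood apart from the WT libraries in ways that touch every comparison of genotype. Il17a had 0 counts in the DKO CXCR6+ library and 3 in the DKO SLAMF6+ library, against at least 1622 in each WT library. Il17f had 1 count in each DKO library, against at least 174 in each WT library. Among beta variable receptor segments, Trbv16 held 9.96% and 6.51% of the reads in DKO CXCR6+ and DKO SLAMF6+ libraries, against 99.6% to 99.8% in the WT libraries. Xist was at 0 counts in both DKO libraries and present in all WT libraries, and Ddx3y was present in both DKO libraries and at 0 in all WT libraries. Haemoglobin genes took 11.9% of the DKO SLAMF6+ library. Library totals were 8552216 and 8285134 counts in the DKO libraries, against 6818658 to 11635037 in WT. Each DKO group is a single library, assumed in the tests to vary like the WT libraries, so genotype cannot be told apart from any other property of those samples. Cxcr6, the other sort marker, was at 382 and 162 CPM (counts relative to the library total after TMM scaling, edgeR's adjustment for library composition) in DKO CXCR6+ and DKO SLAMF6+ libraries. It ran from 4.34 to 42.9 CPM in WT CXCR6+ libraries and from 11.4 to 19.1 CPM in WT SLAMF6+ libraries, so the WT subsets overlapped on that transcript.

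The promoters of 4 members are shown because these genes moved in opposite directions between the genotypes although they lie in one cluster. Each window holds 250 bases before and 50 bases after the start of the gene in RefSeq on GRCm38.p6, on the gene's own strand. Slamf6 at chr1:171917212-171917511 (+ strand) and Cd48 at chr1:171681742-171682041 (+ strand) were higher in the DKO libraries. Slamf1 at chr1:171766882-171767181 (+ strand) and Slamf7 at chr1:171648950-171649249 (- strand) were lower. The Slamf7 window lies inside the gene as placed by GENCODE (171632403 to 171653035), so the annotations give this gene different starts. Capitals mark matches to the searched motifs.
Slamf6: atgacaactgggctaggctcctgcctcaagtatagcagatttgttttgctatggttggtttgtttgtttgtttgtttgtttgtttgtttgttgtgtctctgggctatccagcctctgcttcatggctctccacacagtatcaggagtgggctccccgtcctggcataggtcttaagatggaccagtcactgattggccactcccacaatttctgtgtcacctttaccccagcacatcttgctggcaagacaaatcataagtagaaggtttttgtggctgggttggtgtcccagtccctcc
Cd48: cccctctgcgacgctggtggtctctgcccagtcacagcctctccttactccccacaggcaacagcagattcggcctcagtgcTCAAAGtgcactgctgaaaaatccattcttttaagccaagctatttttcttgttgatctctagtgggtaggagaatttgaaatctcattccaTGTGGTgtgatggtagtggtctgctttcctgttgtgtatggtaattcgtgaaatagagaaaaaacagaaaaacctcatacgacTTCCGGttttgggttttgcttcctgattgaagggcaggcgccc
Slamf1: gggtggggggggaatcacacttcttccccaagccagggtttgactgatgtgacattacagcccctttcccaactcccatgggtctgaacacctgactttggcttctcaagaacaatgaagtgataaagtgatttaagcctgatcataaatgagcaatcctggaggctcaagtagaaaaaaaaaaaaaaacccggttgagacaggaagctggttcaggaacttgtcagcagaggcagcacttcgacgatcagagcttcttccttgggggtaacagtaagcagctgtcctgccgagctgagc
Slamf7: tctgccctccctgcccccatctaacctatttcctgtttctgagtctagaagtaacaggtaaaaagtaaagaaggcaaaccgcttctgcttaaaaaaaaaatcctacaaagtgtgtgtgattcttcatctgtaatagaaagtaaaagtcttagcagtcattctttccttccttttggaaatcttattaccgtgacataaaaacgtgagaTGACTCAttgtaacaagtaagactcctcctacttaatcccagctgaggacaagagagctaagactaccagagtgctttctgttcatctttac

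Of the 8 members, 6 had a promoter in the RefSeq table. Motifs were searched on both strands, and the share of all 32851 promoter windows of the same length that hold each one was counted. ETS was searched as CCGGAA, found in 14.9% of windows. RUNX was searched as TGTGGT, found in 16.8%. AP-1 was searched as TGANTCA, which reads alike on both strands, found in 7.81%. TCF/LEF was searched as CTTTGA, found in 16%. NFAT was searched as GGAAAA, found in 23.4%. GATA was searched as AGATAA, found in 11.2%. The Cd48 window held ETS, RUNX and TCF/LEF matches at 8, -76 and -168 from the start. The Slamf7 window held 1 AP-1 match at -42 from the RefSeq start, which lies inside the GENCODE gene. The windows of Slamf6 and Slamf1 held none of the 6 motifs. Cd84 had AP-1 and RUNX matches at -229 and -45, and Slamf9 had a TCF/LEF match at -146. A match describes the letters of a window and is not evidence of binding.

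In the CXCR6+ subset, all 8 members differed between DKO and WT by edgeR's quasi-likelihood test at an adjusted p under 0.05, with 5 higher and 3 lower in the DKO library. Of all 21565 genes tested, 28.7% passed the same test there, and of the 5461 genes with a mean of at least 20 CPM, where 7 of the 8 members sit, 55.4% passed. In the SLAMF6+ subset, 7 of 8 differed, 5 higher and 2 lower, against 31.1% of all genes tested and 55.7% of those at 20 CPM or more. Slamf9 had to differ to be tested at all; without it the counts were 7 of 7 members in CXCR6+ cells (4 higher, 3 lower) and 6 of 7 in SLAMF6+ cells (4 higher, 2 lower). Slamf9 aside, 6 members were called in the same direction in both subsets, beside 17.2% of all genes tested and 34.3% of those at 20 CPM or more. The receptors split into a group that was higher (Slamf6, Cd48, Cd84, Ly9 and Slamf9) and a pair that was lower (Slamf1 and Slamf7) in both subsets. The median log2 fold change of the members was 1.35 in CXCR6+ and 1.35 in SLAMF6+ cells, against -0.22 and -0.05 over all genes tested; without Slamf9 it was 1.05 and 1.15. The DKO library lay outside the range of its 5 WT libraries for all 8 members in both subsets. This held for 57.7% of all genes in CXCR6+ cells (29.6% above, 28.1% below) and for 66.0% in SLAMF6+ cells (35.1% above, 30.9% below). Of all genes tested, 12.8% were called higher and 15.9% lower in DKO CXCR6+ cells, and 13.5% higher and 17.5% lower in DKO SLAMF6+ cells. Both comparisons rest on 1 DKO library each. In bulk libraries, fewer cells of a type and less RNA per cell cannot be told apart.

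**Figure D1:**
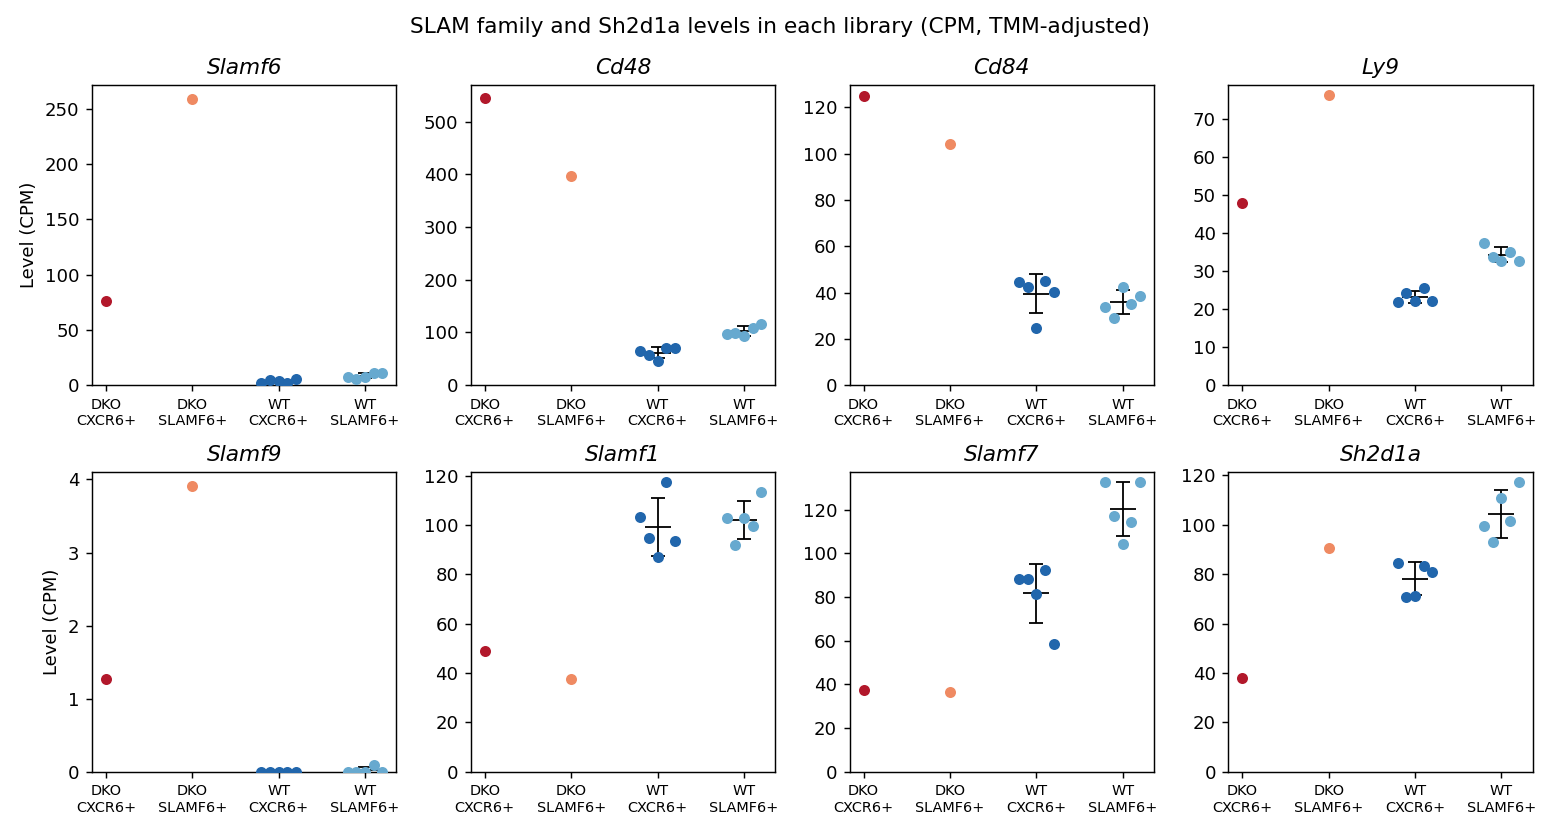
Level of each of the 8 genes in each library, in CPM on a linear axis from 0, with DKO groups left of WT groups. Points are libraries, and black bars give the mean and SD of the 5 WT libraries. The DKO points lie above every WT point of their subset for Slamf6, Cd48, Cd84, Ly9 and Slamf9, and below every WT point for Slamf1, Slamf7 and Sh2d1a.

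Slamf6 (chromosome 1, 171917515 to 171953170, GRCm38) encodes a receptor that binds itself and is known as a marker of less differentiated, stem-like T cells. It was at 75.8 CPM in the DKO CXCR6+ library, against 1.69, 4.39, 3.43, 1.99 and 5.02 CPM in the 5 WT CXCR6+ libraries. It was at 259 CPM in the DKO SLAMF6+ library, against 7.09, 5.90, 7.54, 10.6 and 10.98 CPM in the WT SLAMF6+ libraries. Both DKO libraries lay above every WT library of either subset, including the DKO CXCR6+ library above the WT cells sorted for SLAMF6. The log2 fold change was 4.52 (SE 0.390, 22.9-fold) in CXCR6+ cells, with an adjusted p of 9.00e-06 by edgeR's quasi-likelihood test and Benjamini-Hochberg adjustment. In SLAMF6+ cells it was 4.94 (SE 0.376, 30.6-fold), with an edgeR adjusted p of 4.09e-06. The counts behind the values were 656 and 1788 in the DKO libraries, against 14 to 45 in WT CXCR6+ and 42 to 111 in WT SLAMF6+ libraries.

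Cd48 (chromosome 1, 171682009 to 171705258) encodes a lipid-anchored surface protein, the ligand of CD2 and of the receptor CD244. It was at 545 CPM in the DKO CXCR6+ library, against 64.3, 57.3, 44.8, 70.5 and 69.7 CPM in the WT CXCR6+ libraries. It was at 398 CPM in the DKO SLAMF6+ library, against 97.6, 98.8, 92.5, 108 and 117 CPM in the WT SLAMF6+ libraries. The DKO libraries were above all WT libraries in both subsets. The fitted log2 change was 3.15 (SE 0.173, 8.88-fold) in CXCR6+ cells, with an edgeR adjusted p of 4.88e-07. In SLAMF6+ cells it was 1.95 (SE 0.182, 3.87-fold), with an edgeR adjusted p of 1.64e-05. The gene model Gm37010 overlaps Cd48 on the same strand by 1704 bp with no shared exon. It stood at 59.4 and 37.2 CPM in DKO CXCR6+ and DKO SLAMF6+ libraries, against means of 14.4 and 6.78 CPM in WT CXCR6+ and SLAMF6+ libraries.

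Cd84 and Ly9 encode receptors that each bind their own kind and that recruit SAP. Cd84 (chromosome 1, 171839697 to 171890718) was at 125 CPM in the DKO CXCR6+ library, against 44.6, 42.6, 24.8, 44.9 and 40.2 CPM in WT CXCR6+ libraries. It was at 104 CPM in the DKO SLAMF6+ library, against 33.9, 28.8, 42.5, 34.9 and 38.7 CPM in WT SLAMF6+ libraries. Neither DKO library overlapped its WT group. The log2 fold change was 1.66 (SE 0.248) in CXCR6+ and 1.54 (SE 0.251) in SLAMF6+ cells, with edgeR adjusted p-values of 0.000445 and 0.000787.

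Ly9 (chromosome 1, 171588624 to 171607410, also called CD229) was at 47.9 CPM in the DKO CXCR6+ library, against 21.7, 24.3, 22.2, 25.6 and 22.1 CPM in WT CXCR6+ libraries. It was at 76.2 CPM in the DKO SLAMF6+ library, against 37.4, 33.6, 32.6, 35.0 and 32.7 CPM in WT SLAMF6+ libraries. The DKO level was above the highest WT library in both subsets. By the fit, the log2 fold change was 1.05 (SE 0.118) in CXCR6+ and 1.15 (SE 0.116) in SLAMF6+ cells, with edgeR adjusted p-values of 5.96e-05 and 2.80e-05. Ly9 lies inside Cd244a on the opposite strand, over 18787 bp and with 0 shared exon bases. The protocol keeps no strand information, and intronic reads of either gene cannot be assigned.

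Slamf9 (chromosome 1, 172475358 to 172478575) encodes a receptor without the signalling tail of its relatives, known from macrophages and dendritic cells. It had 11 counts in the DKO CXCR6+ library and 27 in the DKO SLAMF6+ library, against 0 counts in all 5 WT CXCR6+ libraries and 1 count in all WT SLAMF6+ libraries together. It passed the filter on low counts only through the DKO libraries. In CXCR6+ cells it was at least 19.1-fold higher in DKO, taking 3 counts over the WT group as the floor. In SLAMF6+ cells the ratio was 188, with a 95% exact counting interval of 31.0 to 7713. The edgeR adjusted p-values were 0.0215 and 0.0158, and without the WT SLAMF6+ library that held the single count they were 0.116 and 0.0902. Intervals and floors cover counting error only.

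Some lists of markers of other cell types also differed between the DKO and WT libraries. The 9 myeloid markers summed to 74.0 and 271 CPM in DKO CXCR6+ and DKO SLAMF6+ libraries, against 3.35 to 9.88 CPM among WT CXCR6+ and 5.58 to 9.0 CPM among WT SLAMF6+ libraries. Of these, Adgre1, C1qa and C1qb were at 0 in the DKO CXCR6+ library, and none was at 0 in the DKO SLAMF6+ library. Tyrobp, an adaptor of myeloid and NK cells, was at 33.6 and 171 CPM in the DKO libraries. It averaged 0.206 and 0.0583 CPM in WT CXCR6+ and SLAMF6+ libraries. Fcer1g was at 25.1 and 64.3 CPM in the DKO libraries, against WT means of 0.422 and 0.0391 CPM. Tyrobp and Fcer1g made up most of each DKO sum. Cd68 went the other way, at 1.503 and 4.779 CPM in the DKO libraries, against WT means of 5.245 and 6.394 CPM. In DKO CXCR6+ cells 3 of the 9 myeloid markers were called higher and 1 lower. In DKO SLAMF6+ cells 6 were called higher and 0 lower. The 4 NK and innate lymphoid markers summed to 13.9 and 73.4 CPM in DKO CXCR6+ and DKO SLAMF6+ libraries, against 0.223 to 1.76 CPM among WT CXCR6+ and 0.0979 to 0.702 CPM among WT SLAMF6+ libraries. The 5 dendritic cell markers summed to 117 and 662 CPM in DKO CXCR6+ and DKO SLAMF6+ libraries. WT sums ran from 53.8 to 111 CPM in CXCR6+ and from 159 to 203 CPM in SLAMF6+ libraries. Most of each DKO sum was H2-Ab1, at 104 and 604 CPM, against WT means of 85.1 and 186 CPM. In the DKO CXCR6+ library Siglech and Xcr1 were at 0, and Flt3 was at 0.231 CPM against a WT mean of 1.95 CPM. In DKO CXCR6+ cells 1 of the 5 was called higher and 1 lower, and in DKO SLAMF6+ cells 4 higher and 0 lower. The 9 T cell markers summed to 4345 and 4713 CPM in DKO CXCR6+ and DKO SLAMF6+ libraries, against 3620 to 5536 CPM among WT CXCR6+ and 5480 to 6485 CPM among WT SLAMF6+ libraries. That sum hid opposite shifts. Trac was at 543 and 728 CPM in the DKO libraries, against WT means of 2610 and 3944 CPM. Cd3e was at 578 and 544 CPM, against WT means of 160 and 233 CPM. Of the 9, 5 were called higher and 1 lower in DKO CXCR6+ cells. In DKO SLAMF6+ cells 4 were called higher and 1 lower. These were 66.7% and 55.6% of the list, beside 28.7% and 31.1% of all genes tested. Among genes of at least 20 CPM, where all 9 lie, the shares were 55.4% and 55.7%. Of the other lists, the erythroid markers stood out in the DKO SLAMF6+ library alone, at 143738 CPM summed, against 0.972 to 3.45 CPM in WT SLAMF6+ libraries; the DKO CXCR6+ library had 2.66 CPM, against 1.54 to 3.59 CPM in WT CXCR6+ libraries. The oligodendrocyte list summed to 59.2 and 46.6 CPM in DKO CXCR6+ and DKO SLAMF6+ libraries, against 12.5 to 16.7 CPM among WT CXCR6+ and 18.8 to 21.4 CPM among WT SLAMF6+ libraries. The microglia list gave 46.7 and 47.2 CPM in DKO, against 19.1 to 41.0 CPM among WT CXCR6+ and 62.2 to 82.9 CPM among WT SLAMF6+ libraries. The CD8 list gave 1.16 and 17.8 CPM in DKO, against 4.23 to 18.1 CPM among WT CXCR6+ and 17.6 to 24.5 CPM among WT SLAMF6+ libraries. The B cell, mast cell, platelet and astrocyte lists stayed below 6 CPM in both DKO libraries and below 13 CPM in all WT libraries. The part of these cell types in the levels of the SLAM genes was not tested.

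Slamf1 and Slamf7 went the other way. Slamf1 (chromosome 1, 171767127 to 171801184) encodes CD150, a receptor that binds itself and recruits SAP. It was at 48.8 CPM in the DKO CXCR6+ library, against 103, 94.6, 86.9, 118 and 93.5 CPM in WT CXCR6+ libraries. It was at 37.5 CPM in the DKO SLAMF6+ library, against 103, 91.8, 103, 99.6 and 114 CPM in WT SLAMF6+ libraries. Both DKO libraries were below every WT library. The log2 fold change was -1.02 (SE 0.166) in CXCR6+ and -1.44 (SE 0.172) in SLAMF6+ cells, with edgeR adjusted p-values of 0.000778 and 9.43e-05.

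Slamf7 (chromosome 1, 171632403 to 171653035) encodes CRACC, known in NK cells for signalling through the adaptor EAT-2 rather than SAP. It was at 37.2 CPM in the DKO CXCR6+ library, against 88.4, 88.0, 81.6, 92.2 and 58.5 CPM in WT CXCR6+ libraries. It was at 36.3 CPM in the DKO SLAMF6+ library, against 133, 117, 104, 114 and 133 CPM in WT SLAMF6+ libraries. The groups did not overlap in either subset, and the fifth WT CXCR6+ library came nearest to the DKO level. Relative to WT the log2 fold change was -1.13 (SE 0.233) in CXCR6+ and -1.72 (SE 0.244) in SLAMF6+ cells, with edgeR adjusted p-values of 0.00362 and 0.000312. An antisense gene, Gm37787, shares 423 exon bases with Slamf7 and had 28 to 107 counts per library over all 12 libraries, and reads of those shared bases cannot be told apart.

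Sh2d1a (chromosome X, 42502453 to 42529330) encodes SAP, the adaptor shared by most of these receptors. It was at 37.9 CPM in the DKO CXCR6+ library, against 84.6, 70.7, 71.2, 83.5 and 80.8 CPM in WT CXCR6+ libraries. It was at 90.5 CPM in the DKO SLAMF6+ library, against 99.3, 93.1, 111, 101 and 117 CPM in WT SLAMF6+ libraries. The DKO CXCR6+ library lay well below its WT group, and the DKO SLAMF6+ library lay just below the lowest WT SLAMF6+ library. The log2 fold change was -1.04 (SE 0.155) in CXCR6+ cells, with an edgeR adjusted p of 0.000432. In SLAMF6+ cells it was -0.21 (SE 0.144) with an edgeR adjusted p of 0.322, and it turned to 0.48 with an edgeR adjusted p of 0.0099 once GC and length offsets were used. Tenm1 overlaps its exons on the opposite strand but had 0 to 3 counts per library.

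The DKO difference depended on the subset for 2 of 8 members, Cd48 and Sh2d1a, or 25%, where 10.3% of all genes tested did so (6.36% upward, 3.94% downward) and 26.9% of genes of at least 20 CPM, so the members' share was near that of genes of like level. For Cd48 the DKO minus WT log2 difference was 1.20 larger (SE 0.295) in CXCR6+ than in SLAMF6+ cells, with an edgeR adjusted p of 0.0270 for the interaction. For Sh2d1a it was lower by 0.84 on the log2 scale (interaction -0.84, SE 0.203), with an edgeR adjusted p of 0.0256. Neither call held under every alternative: the Cd48 value was 0.48 with an edgeR adjusted p of 0.293 under GC and length offsets, and the Sh2d1a adjusted p was 0.0876 with no filter on low counts. Without the WT libraries numbered 1, neither passed, with edgeR adjusted p-values of 0.0569 for Cd48 and 0.0620 for Sh2d1a. Leaving out those numbered 2 ended the Cd48 call (0.0572), and leaving out those numbered 4 ended the Sh2d1a call (0.0581). For Slamf6, Slamf1, Slamf7, Ly9 and Cd84 the edgeR adjusted p-values of the interaction lay between 0.284 and 1.00, which does not show that the differences were equal.

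**Figure D2:**
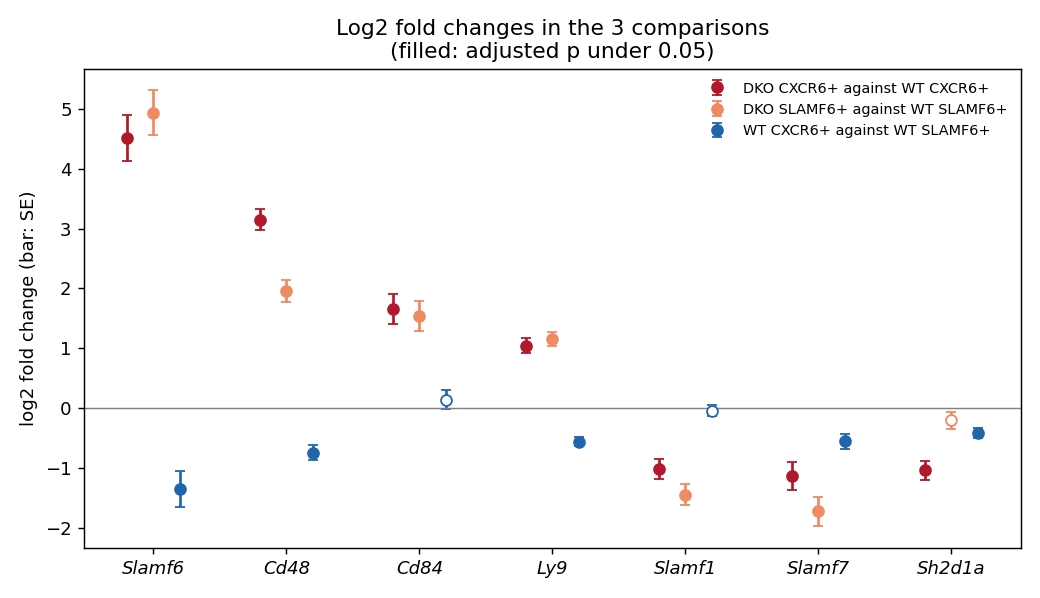
Log2 fold change of 7 members in the 3 comparisons, DKO against WT in CXCR6+ cells, DKO against WT in SLAMF6+ cells, and WT CXCR6+ against WT SLAMF6+. Bars are SE, and filled points have an adjusted p under 0.05. Slamf9 is left out because its fitted fold change rests on WT groups at or near 0 counts. Slamf6, Cd48, Cd84 and Ly9 are above 0 and Slamf1 and Slamf7 below 0 in both genotype comparisons.

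Between the DKO libraries themselves, 1 against 1 and with no test, the CXCR6+ library had less Slamf6 (log2 ratio -1.77, 95% counting interval -1.90 to -1.64) than the SLAMF6+ library. Sh2d1a was also lower, with a log2 ratio of -1.25 (-1.45 to -1.06). Cd48 was higher, with 0.45 (0.39 to 0.52), and Slamf7 was near even, with 0.03 (-0.21 to 0.28). Ly9 stood at -0.67, Cd84 at 0.26, Slamf1 at 0.38 and Slamf9 at -1.47. Of all genes tested, 30.5% differed by at least 2-fold between these libraries.

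Within WT, 5 of 8 members passed the test between CXCR6+ and SLAMF6+ cells and all 5 were lower in CXCR6+ cells, against 33.3% of all genes tested called in either direction, 17.7% of all genes called lower, and 70.0% called among genes of at least 20 CPM. Without the sort gene Slamf6 the count was 4: Cd48, Slamf7, Ly9 and Sh2d1a. The log2 fold change of Cd48 was -0.74 (SE 0.121, means 61.3 ± 10.7 CPM in CXCR6+ and 103 ± 9.66 CPM in SLAMF6+, SD, n = 5 each), with an edgeR adjusted p of 0.000704. Ly9 averaged 23.2 ± 1.68 CPM in CXCR6+ and 34.3 ± 2.02 CPM in SLAMF6+ cells (SD, n = 5 each), a log2 fold change of -0.56 with an edgeR adjusted p of 0.00015. Slamf7 averaged 81.7 ± 13.6 CPM in CXCR6+ and 120 ± 12.3 CPM in SLAMF6+ cells (SD, n = 5 each), also -0.56, with an edgeR adjusted p of 0.0048. Sh2d1a averaged 78.1 ± 6.73 CPM in CXCR6+ and 104 ± 9.71 CPM in SLAMF6+ cells (SD, n = 5 each), a log2 fold change of -0.42 with an edgeR adjusted p of 0.00228; with only genes of at least 10 CPM in 5 libraries it was -0.15 with an edgeR adjusted p of 0.0799, so the call was lost. For each of these 4 genes the highest CXCR6+ library was below the lowest SLAMF6+ library, as it was for 15.0% of all genes tested.

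The direction of these WT differences depended on scaling for some members. With GC and length offsets, Cd48 was at 0.02 (adjusted p 0.893) and Sh2d1a at 0.33 (adjusted p 0.0048), so both turned. With library totals alone in place of TMM, the median of all genes moved by 0.39, and Cd48, Ly9, Slamf7 and Sh2d1a kept their sign but lost the call. Mitochondrial genes took 12.9% to 17.6% of WT CXCR6+ libraries and 2.20% to 5.24% of WT SLAMF6+ libraries, and their part in the WT difference was not tested. The mitochondrial transfer RNA gene mt-Ts1 had no counts in the first of the WT CXCR6+ libraries and in 4 of the 5 WT SLAMF6+ ones. Both DKO libraries had it, and against only the WT libraries with mt-Ts1 present the DKO log2 difference in CXCR6+ and SLAMF6+ cells was 4.35 and 5.46 for Slamf6, 3.17 and 2.01 for Cd48, -1.01 and -1.29 for Slamf1 and -1.10 and -1.69 for Slamf7. Among libraries with mt-Ts1 present (4 CXCR6+, 1 SLAMF6+) the WT log2 difference was -0.71 for Cd48, -0.51 for Ly9, -0.55 for Slamf7 and -0.28 for Sh2d1a. Among libraries with mt-Ts1 at 0 (1 CXCR6+, 4 SLAMF6+) it was -0.69 for Cd48, -0.67 for Ly9, -0.45 for Slamf7 and -0.34 for Sh2d1a.

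Slamf1 averaged 99.2 ± 11.8 CPM among WT CXCR6+ and 102 ± 7.81 CPM among WT SLAMF6+ cells (SD, n = 5 each), with an edgeR adjusted p of 0.750. Cd84 averaged 39.4 ± 8.40 CPM among WT CXCR6+ and 35.7 ± 5.16 CPM among WT SLAMF6+ cells (SD, n = 5 each), with an edgeR adjusted p of 0.537. Both pairs of groups overlapped, and Slamf9 was at or near 0 in both subsets. Slamf1 was higher in CXCR6+ cells with library totals alone (log2 0.35, edgeR adjusted p 0.0136), with GC and length offsets (0.30, 0.0063) and with only genes of at least 10 CPM (0.22, 0.0194). Cd84 was higher with library totals alone (0.54, edgeR adjusted p 0.0333), with only genes of at least 10 CPM (0.40, 0.0297), and also without the libraries numbered 3 (0.34, edgeR adjusted p 0.0275). Slamf6 served as the sort check: it averaged 3.30 ± 1.46 CPM among WT CXCR6+ and 8.42 ± 2.25 CPM among WT SLAMF6+ cells (SD, n = 5 each), in the direction of the sort, at 14 to 45 and 42 to 111 counts per library.

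Per kilobase of transcript, which lets genes be compared with each other, the order of levels changed with genotype. In WT CXCR6+ cells Sh2d1a (63.9 CPM per kb) and Cd48 (51.7 CPM per kb) led with overlapping libraries. They were followed by Slamf1 (36.8), Slamf7 (20.6), Cd84 (11.5), Ly9 (9.31) and Slamf6 (0.577 CPM per kb), where Cd48 overlapped with Slamf1 and Cd84 with Ly9. In WT SLAMF6+ cells Cd48 (86.7 CPM per kb) and Sh2d1a (85.4 CPM per kb) overlapped at the top, and Slamf6 (1.47 CPM per kb) was again next to last, above Slamf9. In the DKO CXCR6+ library Cd48 stood at 459 CPM per kb, with Cd84 next at 36.3 and Sh2d1a at 31.0 CPM per kb. In the DKO SLAMF6+ library Cd48 stood at 335 CPM per kb, Sh2d1a at 74.0 and Slamf6 at 45.2 CPM per kb.

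Summed over the 8 genes, the level was 588 and 541 CPM per kb in DKO CXCR6+ and DKO SLAMF6+ libraries. The sum was 194 ± 20.1 CPM per kb in WT CXCR6+ and 266 ± 18.6 CPM per kb in WT SLAMF6+ cells (SD, n = 5 each). Cd48 made up 78.2% and 61.9% of the sum in DKO CXCR6+ and DKO SLAMF6+ libraries, against 26.5% ± 2.60 in WT CXCR6+ and 32.6% ± 1.79 in WT SLAMF6+ cells (SD, n = 5 each). Sh2d1a made up 5.28% and 13.7% in the DKO libraries, against means of 33.0% and 32.1% in WT CXCR6+ and SLAMF6+ cells. Slamf1 made up 3.08% and 2.57% in DKO CXCR6+ and DKO SLAMF6+ libraries, against means of 18.9% and 14.3% in WT CXCR6+ and SLAMF6+ cells. Slamf6 made up 2.25% and 8.35% in the DKO libraries, against 0.305% and 0.548% in the WT means.

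**Figure D3:**
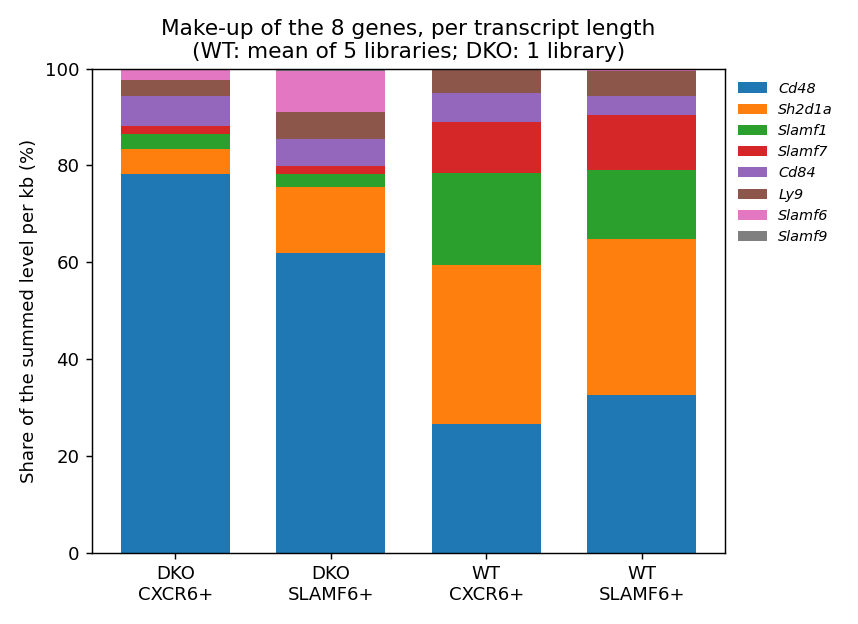
Share of each of the 8 genes in their summed level per kilobase, in percent, with DKO groups left of WT groups (DKO 1 library each, WT mean of 5). Cd48 fills 78.2% of the DKO CXCR6+ bar and 61.9% of the DKO SLAMF6+ bar, against 26.5% and 32.6% of the WT CXCR6+ and SLAMF6+ bars.

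Relatives of the family outside the 8 members were mostly near 0 in WT cells. Cd244a, the receptor that binds CD48, had 44 and 84 counts in DKO CXCR6+ and DKO SLAMF6+ libraries, against 18 and 19 counts over all WT CXCR6+ and WT SLAMF6+ libraries. Its edgeR adjusted p was 0.0423 in CXCR6+ and 0.0091 in SLAMF6+ cells. Sh2d1b1, which encodes EAT-2, had 8 and 19 counts in the DKO libraries, against 1 count over WT CXCR6+ and 0 over WT SLAMF6+ libraries. It was at least 44.2-fold higher in DKO SLAMF6+ cells, with the ratio at 41.8 (95% exact counting interval 5.60 to 1853) in CXCR6+ cells. It did not pass the test in CXCR6+ cells (edgeR adjusted p 0.104) and passed in SLAMF6+ cells (edgeR adjusted p 0.0192). Slamf8, a myeloid member, had 0 counts in the DKO CXCR6+ library and 48 in the DKO SLAMF6+ library, against 29 and 39 over the WT CXCR6+ and WT SLAMF6+ libraries. Slamf8 was not called in CXCR6+ cells (edgeR adjusted p 0.0831), where the first WT library also had 0 counts. It was higher in the DKO SLAMF6+ library (edgeR adjusted p 0.0372). Sh2d1b2 was at 0 in both DKO libraries and was not tested. Cd244a, Sh2d1b1 and Slamf8 passed the filter only through the DKO libraries. Cd2, the other receptor for CD48, was at 484 and 508 CPM in DKO CXCR6+ and DKO SLAMF6+ libraries, against 412 ± 70.6 CPM among WT CXCR6+ and 663 ± 42.3 CPM among WT SLAMF6+ cells (SD, n = 5 each). It differed between the WT subsets (log2 -0.69, edgeR adjusted p 0.000627) and passed the test in neither genotype comparison.

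Downstream of the receptors, 18 genes of the SAP, Fyn and NF-kappaB route were all tested. In CXCR6+ cells 10 rose and 1 fell in DKO, and in SLAMF6+ cells 10 rose and 2 fell. These were 61.1% and 66.7% of the list, beside 28.7% and 31.1% of all genes and 55.4% and 55.7% of genes of at least 20 CPM. Malt1, a protease of the NF-kappaB route, fell to 26.8 and 16.8 CPM in DKO CXCR6+ and DKO SLAMF6+ libraries, against 93.4 ± 7.65 and 38.1 ± 3.78 CPM in WT CXCR6+ and SLAMF6+ cells (SD, n = 5 each). Plcg1, a phospholipase of receptor signalling, was at 112 and 109 CPM in DKO CXCR6+ and DKO SLAMF6+ libraries, against 49.4 and 34.3 CPM in WT CXCR6+ and SLAMF6+ means. Fyn was at 55.8 and 54.7 CPM in the DKO libraries, against 34.1 and 15.6 CPM in the WT means. Prkcq, a kinase of T cell activation, was at 150 and 151 CPM in the DKO libraries, against 51.6 and 68.6 CPM in the WT means. In WT, 7 of the 18 were higher and 3 lower in CXCR6+ than in SLAMF6+ cells, 55.6% of the list, beside 33.3% of all genes (15.6% higher, 17.7% lower) and 70.0% of genes of at least 20 CPM. Malt1 (log2 1.29), Nfkb1 (1.00) and Rasa1 (1.26) were among the higher and Bcl10 (-0.79) among the lower. Dok2, an adaptor that dampens receptor signals, rose in both DKO libraries, with a log2 fold change of 1.38 in CXCR6+ and 1.24 in SLAMF6+ cells. So did Csk, a kinase that restrains Src family kinases (1.07 and 1.91), and Rasa1, a brake on Ras (0.96 and 1.87). The list's median log2 difference was 0.69 in CXCR6+ and 1.06 in SLAMF6+ cells for DKO against WT and 0.19 within WT, beside -0.22, -0.05 and 0.13 over all genes.

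Of 10 genes of programmes known to depend on SAP, such as follicular help and type 2 cytokines, 9 were tested. In DKO CXCR6+ cells 1 rose and 3 fell, and in DKO SLAMF6+ cells 2 rose and 4 fell. These shares, 44.4% and 66.7% of the list, stood beside 28.7% and 31.1% of all genes and 55.4% and 55.7% of genes of at least 20 CPM. Il21, a cytokine of helper T cells, had 0 and 3 counts in DKO CXCR6+ and DKO SLAMF6+ libraries, against 9981 and 10755 counts over the WT CXCR6+ and SLAMF6+ libraries. It was at least 637-fold lower in DKO CXCR6+ cells. Pdcd1, the inhibitory receptor PD-1, was at 12.3 and 19.0 CPM in the DKO libraries, against 98.4 ± 29.0 and 81.4 ± 4.87 CPM in WT CXCR6+ and SLAMF6+ cells (SD, n = 5 each). Cxcr5, the receptor that leads cells to follicles, had 0 and 207 counts in DKO CXCR6+ and DKO SLAMF6+ libraries, against 32 and 22 over the WT libraries of each subset. Maf, a transcription factor of interleukin genes, rose in both DKO libraries (log2 1.29 and 1.48), and Il4, a type 2 cytokine, fell in both (-2.86 and -3.18; 2.66 and 7.67 CPM in DKO CXCR6+ and DKO SLAMF6+ libraries, against means of 19.3 and 69.5 CPM in WT CXCR6+ and SLAMF6+ cells). Cxcr5 passed the filter on low counts only through the DKO SLAMF6+ library, so it had to be high there to be tested. It is 1 of the 2 genes that rose in DKO SLAMF6+ cells, and the 66.7% includes it. Within WT, Icos (log2 -0.68), Il4 (-1.85) and Gata3 (-0.38) were lower in CXCR6+ than in SLAMF6+ cells and no gene of the list was higher; these 3 of 9 are 33.3% of the list, the same share as the 33.3% of all genes called in either direction.

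The 7 receptor members span 171588624 to 172478575 on chromosome 1, and 62 other genes within 1 Mb of that span were tested. In DKO CXCR6+ cells 20 of the 62 passed the test, 13 higher and 7 lower (32.3%), and in DKO SLAMF6+ cells 21 passed, 12 higher and 9 lower (33.9%), near the shares of all genes. Of the 62, Cd244a and Slamf8 passed the filter on low counts only through the DKO libraries, and the other neighbours were not checked for this. Ifi206, Fcgr2b and Fcer1g, called higher in both subsets, averaged 0.0614, 0.121 and 0.230 CPM in WT. Genes so near 0 in WT could hardly be called lower, and the counts of higher neighbours include them. They could also hardly pass that filter on the WT libraries alone. Ifi206, for one, had at most 2 counts in any WT library. Among the 62, Tagln2, an actin-binding protein, was at 793 and 699 CPM in DKO CXCR6+ and DKO SLAMF6+ libraries, against 328 ± 22.5 and 675 ± 46.0 CPM in WT CXCR6+ and SLAMF6+ cells (SD, n = 5 each). Ifi206, an interferon-induced gene of the neighbouring family, had 440 and 261 counts in DKO CXCR6+ and DKO SLAMF6+ libraries, against 4 and 2 over the WT CXCR6+ and SLAMF6+ libraries. F11r had 0 counts in both DKO libraries, against 99 and 166 over the WT CXCR6+ and SLAMF6+ libraries, at least 7.93-fold lower in DKO SLAMF6+ cells. Within WT, 22 of the 62 passed (35.5%, against 33.3% of all genes), 11 higher and 11 lower in CXCR6+ cells, led by Tagln2 (log2 -1.04), Ufc1 (-0.86) and Sdhc (-0.96). The interaction was called for 4 (6.45%, against 10.3% of all genes), with Tagln2 (1.22), Ufc1 (0.64) and Nit1 (1.07) leading.

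**Figure D4:**
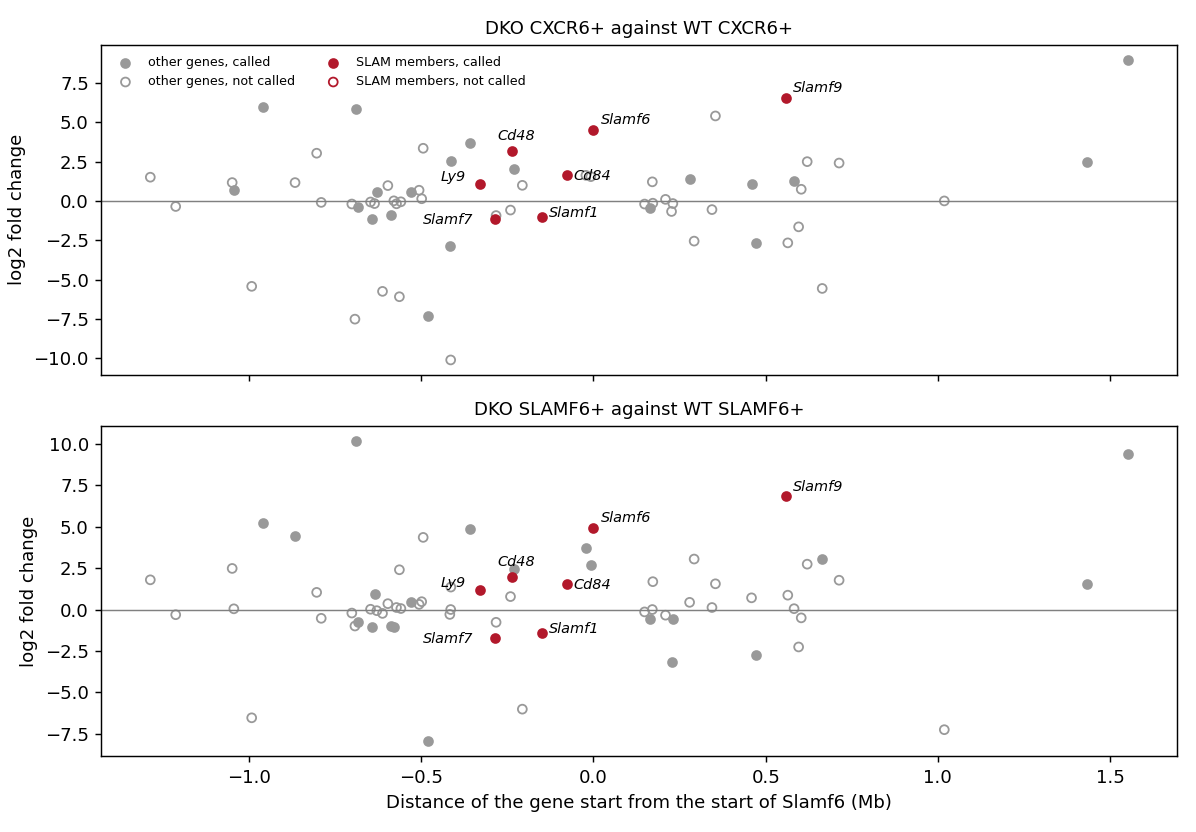
Log2 fold change of DKO against WT for tested genes near the SLAM cluster, by distance of the gene start from the start of Slamf6 in Mb, CXCR6+ above and SLAMF6+ below. Red points are the SLAM members and grey points other genes, filled where the adjusted p was under 0.05. In DKO CXCR6+ cells 13 of the 62 neighbours were higher and 7 lower. Some higher neighbours were near 0 in WT. Cd244a and Slamf8 were tested only through the DKO libraries, and the other neighbours were not checked for this.

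Some genes followed single members closely across the 12 libraries, measured as the root mean square difference of centred log2 profiles, a description with no test. Nearest to Slamf1 was Nop2 (0.127), to Slamf7 Hspa4 (0.135), to Ly9 Rsu1 (0.116), to Cd84 Rnf167 (0.160), to Cd48 Tsc22d3 (0.207) and to Sh2d1a Tmem19 (0.132). The next in order were Ttf2 and Sirt6 for Slamf1, Ugp2 and Nfkbib for Slamf7, Prkacb and Arhgap1 for Ly9, Fgd3 and Il7r for Cd84, Fam78a and Myo1f for Cd48, and Il10ra and Cbwd1 for Sh2d1a. Slamf6 had no near match, with BC147527 at 0.533, Smpdl3a at 0.559 and Isg20 at 0.570 the nearest. Among the members themselves Slamf1 and Slamf7 were most alike (0.300) and Slamf6 and Slamf7 least alike (2.30). All these profiles share the same libraries and the gap between DKO and WT.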

How the data were processed

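RNA was sequenced from 12 libraries, and their groups were taken from the labels. The values are expected counts for each gene symbol, deposited as whole numbers in a single table; the submitters' processing notes name RSEM 1.3.3, STAR 2.7.7a and the mm10 build. Which annotation and read filters the authors used, and how reads matching several genes were handled, is not given in the sources used here.

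Counts were tested in R 4.3.3 with edgeR 4.0.16: TMM scaling, filterByExpr with the groups (21565 of 47359 genes), a quasi-likelihood fit of all 12 libraries with 4 groups and no block, and Benjamini-Hochberg adjustment over all tested genes at 0.05. The spread comes from 8 residual degrees of freedom. limma 3.58.1 and DESeq2 1.42.0 were alternatives, with other scalings, filters, offsets and left-out libraries. CPM used TMM-adjusted totals; the prior count of the DKO ratio was 2. Coordinates and lengths are from GENCODE M21 (GRCm38), promoters from RefSeq (GRCm38.p6). The procedure was tested on simulated counts.

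Named were all members and relatives, the 4 called genes of smallest p in each pathway list, the 3 among neighbours, and the 3 most alike profiles of each member with a mean of at least 1 CPM; some of these are given by count only. The members and lists were chosen with earlier results of these data known, and the comparison with genes of at least 20 CPM was added after seeing the data.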

Additional observations from a re-analysis of the deposited data

Results flagged for a closer look

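In the 5 WT SLAMF6+ libraries Slamf9 was at 0 in all but replicate 4, which had a single count (0.0972 CPM). It is listed because that value stands apart from 4 values at 0, but with 4 libraries at 0 any single count gives such a gap, and 1 count against 0 is within counting error. In the 5 WT CXCR6+ libraries Cd84 was at 24.8 CPM in replicate 3, below the other 4 libraries at 40.2 to 44.9 CPM by more than the limit for a sample far from its group. Chance gives such a gap in about 1 in 20 groups.

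The DKO difference in CXCR6+ cells departed from that in SLAMF6+ cells for Cd48, with an interaction of 1.20 on the log2 scale, and for Sh2d1a, with -0.84. Both come from the interaction test of the same fit and rest on 1 DKO library per subset.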

How the results depend on the processing

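Across alternatives the DKO direction and call held for Slamf6, Cd48, Cd84, Ly9, Slamf1 and Slamf7 in both subsets. The same held for Sh2d1a in CXCR6+ cells. Slamf6 did not pass the filter of at least 10 CPM in 5 libraries and has no value there. Slamf9 has no DKO value there either, nor with the DESeq2 test in either subset. With the compared groups only, Slamf9 has none in CXCR6+ cells. Slamf9 lost its call without replicate 4 of WT SLAMF6+ and, in SLAMF6+ cells, with an mt-Ts1 term (marking libraries at 0 counts; adjusted p 0.175). Sh2d1a in SLAMF6+ cells turned to 0.090 with at least 10 CPM in 5 libraries and to 0.48 with GC and length offsets. Within WT the members called were 3 with library totals alone and 1 at 2-fold or more, where 2841 genes were called. GC and length offsets turned Slamf1 to 0.30, Cd48 to 0.023 and Sh2d1a to 0.33. Slamf1 also turned to 0.0025 with DESeq2 size factors, 0.35 with library totals, 0.0021 with the DESeq2 test, 0.22 with the 10 CPM filter, 0.086 with the compared groups only, 0.0031 after thinning and 0.039 with the mt-Ts1 term; leaving out libraries gave -0.12 to 0.020. The cause was not tested.

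For the interaction, 1 member was called with library totals alone, no filter, 2-fold or more, GC and length offsets and the mt-Ts1 term. Cd84 turned to -0.15 with the 10 CPM filter, -0.077 with GC and length offsets, -0.069 with the mt-Ts1 term, and ran from -0.080 to 0.21 when libraries were left out. Leaving out libraries gave 0 to 2 members called for the interaction, 7 to 8 in DKO CXCR6+, 6 to 7 in DKO SLAMF6+, and 5 to 6 within WT.

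The share of higher among called genes was 46.8% within WT, 75.9% with library totals and 61.4% with GC and length offsets. In DKO CXCR6+ it was 44.6%, 34.0% with library totals and 62.9% with limma; in DKO SLAMF6+ 43.5%, 61.9% with limma and 61.5% with the offsets; for the interaction 61.8%, 51.8% with library totals, 67.7% with no filter and 45.9% with the offsets.

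The WT CXCR6+ and WT SLAMF6+ libraries carry the same label numbers, 1 to 5, and the labels do not say whether equal numbers mark 1 source. Same-number correlations ran from -0.0133 to 0.0777 over 7876 genes, and no library correlated best with its own number. Low correlations cannot show that the libraries were unpaired, and the main WT test used no block. With the replicate block 5 members were called within WT and 1 for the interaction, where Sh2d1a had an edgeR adjusted p of 0.0532. With 1 DKO library per subset, depth and spread of the DKO groups cannot be estimated.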
